A study of Homo sapiens with 6 samples.

Results

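The genes described here encode 9 signalling proteins, and their transcription is switched on by NF-κB. The genes are the chemokines CCL3, CCL4, CCL17 and CCL22, the tumour necrosis factor family members TNF, LTA and LTB, and the interleukins IL10 and IL6. They were taken by name, with earlier results of these data known, and all 9 are among the 25277 gene rows of the deposited table. The values are FPKM, fragment numbers scaled for transcript length and for the size of the library. RNA came from Jeko and Rec-1, which are established human lines of a B-cell cancer, mantle cell lymphoma. All 6 libraries came from stable Cas9 cells made with a tet-on vector, which doxycycline switches on, and had received doxycycline for 48 h. The Jeko control and the Rec-1 control carried the empty vector. Jeko sgRNA 1 and 2 and Rec-1 sgRNA 1 and 2 carried a guide RNA against NR4A1, a nuclear receptor induced as an immediate early gene, and the guide number is their replicate number. Each line has 1 control library and 2 sgRNA libraries. Whether a stable line is 1 clone or a pool is not stated, and nothing says that the libraries of a line came from separate cultures, so p-values measure the spread between these libraries only.

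NF-κB is a family of dimeric transcription factors held in the cytoplasm by inhibitor proteins such as NFKBIA. In B cells the antigen receptor releases it through a complex that holds BCL10 and MALT1, and receptors such as CD40 release it through MAP3K14. CCL3 and CCL4 are chemokines that activated B cells secrete to attract T cells and myeloid cells, and CCL17 and CCL22 attract T cells through CCR4. TNF, LTA and LTB shape lymphoid tissue, IL6 is a growth factor of plasma cells, and IL10 dampens inflammation and can feed back on the B cell that makes it.

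The libraries were first set against their labels. NR4A1, the targeted gene, stood at 3.89 and 4.44 FPKM with guides 1 and 2 in Jeko against 5.99 without a guide, and at 27.4 and 12.7 with guides 1 and 2 against 11.6 without one among the libraries labelled Rec-1. CCND1, the cyclin that defines mantle cell lymphoma, had 0.696 and 0.592 FPKM in the Rec-1 sgRNA pair, where the Rec-1 control had 495 and Jeko had at least 442. All 6 B-cell markers were at 1 FPKM or more in every library, with a summed level between 584 and 1032 FPKM. Across 10351 protein-coding genes the Rec-1 control correlated with the Jeko control at a Pearson r of 0.988 and with Rec-1 sgRNA 1 and 2 at 0.805 and 0.812, where genes are not independent replicates. The library labelled Rec-1 control was thus closer to the Jeko control than to the libraries that share its line label, and every direction drawn below from the Rec-1 libraries rests on these labels. SOX11, a factor typical of mantle cell lymphoma, was 3.6 and 2.45 FPKM in that pair and between 7.11 and 11.1 in the other 4 libraries. Markers of other cells were summed too. The 5 T-cell markers summed to 102 and 119.8 FPKM in Rec-1 sgRNA 1 and 2, from CD3D, CD3G and CD3E, and to between 2.69 and 5.69 in the other 4 libraries. In Rec-1 sgRNA 1 and 2, CD2 was 0.0288 and 0 and CD8A was 0 in both. The 5 monocyte and macrophage markers summed to 12.9 and 15 FPKM in that pair, mostly CD68, against between 1.44 and 2.21 in the others, with CSF1R and FCGR1A at 0 in both Rec-1 sgRNA libraries. The 4 NK-cell markers summed to 6.70 and 7.21 FPKM there and to between 0.856 and 2.07 elsewhere, nearly all from NKG7, with GNLY at 0 in all 6 libraries. The 3 plasma-cell markers, SDC1, PRDM1 and TNFRSF17, summed to 29.2 and 30.9 FPKM there and to between 109 and 155 elsewhere. The part of these markers in the results below was not tested.

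Fragment numbers are not stated in the table, but low values carry them. A gene's FPKM is a whole multiple of what 1 fragment is worth, and the commonest ratio among genes under 0.05 FPKM put the depth of Jeko sgRNA 1 at 0.872 times that of the Jeko control. Jeko sgRNA 2 and the Rec-1 control came to 1.10 times and Rec-1 sgRNA 2 to 0.687 times. With these depths the values of CCL3, CCL4, CCL17, CCL22 and IL10 came out within 0.02 of whole numbers in those 5 libraries. These are the smallest whole numbers in the observed ratio and are called fragments here. Rec-1 sgRNA 1 gave no common ratio (4 of 562 genes shared the commonest), so its values have no fragment number. The intervals given with fragments are exact 95% Poisson intervals and cover counting error only.

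TNF, LTA and LTB lie side by side on chromosome 6 within the major histocompatibility complex (GRCh37): LTA from 31539831 to 31542101, TNF from 31543342 to 31546113 and LTB, on the minus strand, from 31548302 to 31550299. TNF is the founding cytokine of its family, LTA is its closest relative, and LTB anchors LTA to the cell surface. All 3 were listed at 0 in all 6 libraries. Of the 153 protein-coding genes that start within 2 Mb of TNF, these 3 included, 132 were at 0 throughout, or 86.3%, against 18.4% of the 18815 protein-coding genes elsewhere. The zeros ran without a break over 58 protein-coding genes from MICA to EGFL8, and LTA, TNF and LTB are inside that run. A check of 10 genes of the region, picked after their values were seen because most cells use them, found all at 0: TUBB, CSNK2B, BAG6, DDX39B, ABCF1, PSMB8, PSMB9, TAP1, CLIC1 and FLOT1. With such genes at 0, the zeros of TNF, LTA and LTB cannot be read as a level of these genes, and the source of the region's zeros was not tested. Only 8 genes of the window reached 1 FPKM in a library, among them BAK1 at its edge and the class II genes HLA-DRB5, HLA-DRB1, HLA-DQA1 and HLA-DQB1. Elsewhere, 7349 overlapping windows of equal width held at least 50 genes each. The highest share at 0 among them was 90.2%, on chromosome 11, and genes that most cells use were not checked there.

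**Figure D1:**
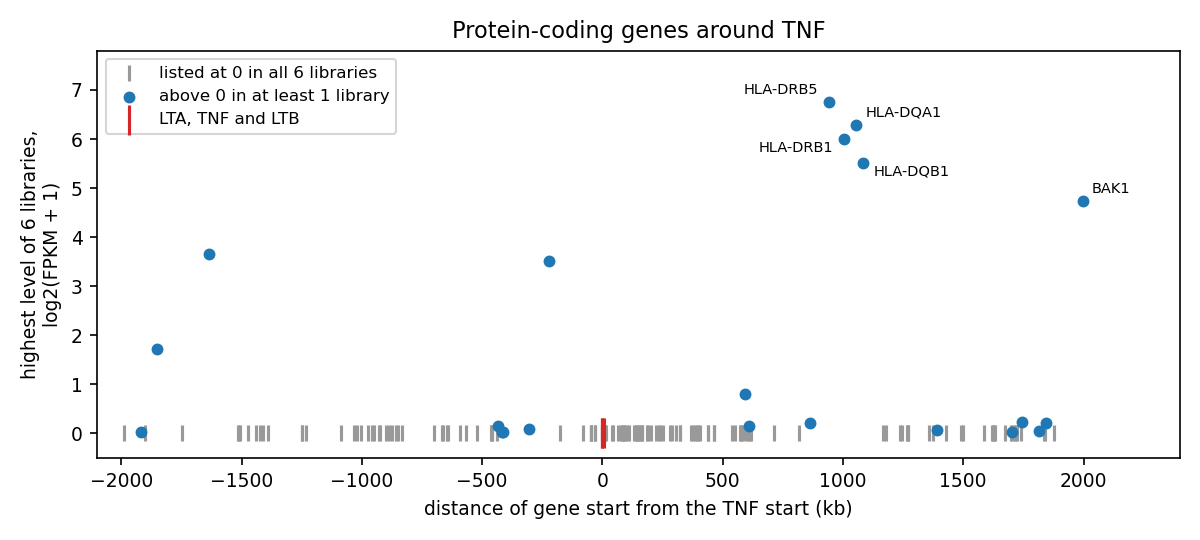
Protein-coding genes within 2 Mb of TNF, placed by the distance of their start from the TNF start (x axis, kb), with the highest level in any of the 6 libraries on the y axis (log2(FPKM + 1)). Grey ticks are the genes listed at 0 in all 6 libraries, 132 of 153 with the red ticks for LTA, TNF and LTB, and blue points are the 21 above 0, of which 8 reached 1 FPKM and 5 of these are named.

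IL6 (chromosome 7, 22765503 to 22771621, plus strand) was also listed at 0 in all 6 libraries. Of the 9 genes, 4 were thus at 0 throughout, CCL17 and CCL22 were above 0 but under the minimum of a mean of 1 FPKM over the 6 libraries that was required for testing, and CCL3, CCL4 and IL10 were among the 11400 genes tested. CCL4 reached that mean only through the Rec-1 control, since the other 5 libraries averaged 0.935 FPKM. The means of CCL3, CCL4 and IL10 over the 2 Rec-1 sgRNA libraries were all under 1 FPKM, so these genes were tested because of their levels in the other libraries, and a difference is built into their having been tested. Differences are on the log2(FPKM + 1) scale, which understates the change of genes with low values.

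**Figure D2:**
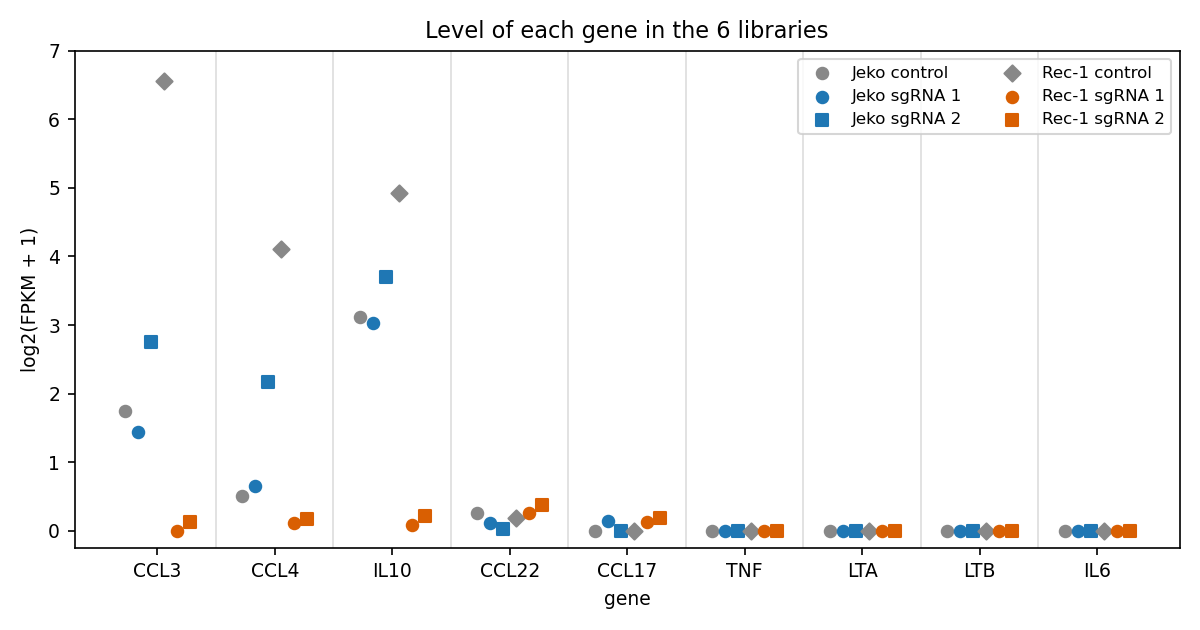
Level of each of the 9 genes (y axis, log2(FPKM + 1)) in the 6 libraries, 1 point per library. CCL3, CCL4 and IL10 were highest in the Rec-1 control (grey diamonds) and next highest in Jeko sgRNA 2 (blue squares), both Rec-1 sgRNA libraries (orange) were below every other library for these 3 genes, and TNF, LTA, LTB and IL6 were at 0 throughout.

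CCL3, or MIP-1α, attracts T cells and myeloid cells, through CCR1 among other receptors. Its gene is on chromosome 17 from 34415602 to 34417515 on the minus strand. The Jeko control held 2.35 FPKM, with 1.72 in Jeko sgRNA 1 and 5.74 in Jeko sgRNA 2, or 36, 23 and 97 fragments. In the libraries labelled Rec-1 it was 93.4 FPKM in the control, listed at 0 in sgRNA 1 and 0.0950 in sgRNA 2, where the control held 1574 fragments and sgRNA 2 held 1. A single library, the Rec-1 control, thus stood far above the other 5, and both Rec-1 sgRNA libraries stood below all 3 Jeko libraries. The counting intervals of the Jeko control (25.2 to 49.8 fragments) and Jeko sgRNA 1 (14.6 to 34.5) overlapped, and that of Jeko sgRNA 2 (78.7 to 118) overlapped neither.

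CCL4, or MIP-1β, a chemokine close to CCL3 in sequence and function, is encoded 13704 bases from CCL3, from 34431220 to 34433014 on the plus strand. The Jeko control held 0.417 FPKM, with 0.574 in Jeko sgRNA 1 and 3.48 in Jeko sgRNA 2, or 5, 6 and 46 fragments. The Rec-1 control had 16.2 FPKM (214 fragments), Rec-1 sgRNA 1 had 0.0790 and Rec-1 sgRNA 2 had 0.122 (1 fragment). The order of the libraries was that of CCL3, except that the Jeko control and Jeko sgRNA 1 changed places, and those 2 differed by 1 fragment before depth is taken into account. The ratio of CCL3 to CCL4 in FPKM was 5.63 and 5.75 in the controls of Jeko and Rec-1 and 3.0 and 1.65 in Jeko sgRNA 1 and 2. In Rec-1 sgRNA 1 and 2 the ratio was 0 and 0.782. For CCL4 the counting intervals were 1.62 to 11.7 fragments in the Jeko control and 2.20 to 13.1 in Jeko sgRNA 1. The ratios of these 2 libraries, and of Rec-1 sgRNA 2 with 1 fragment of each gene, are therefore rough.

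Both chemokines have near-identical copies in the same gene cluster. The coding sequence of CCL4 differs from those of CCL4L1 and CCL4L2 at 8 of 279 bases, and the longest stretch without a difference is 90 bases. CCL3 and its copy CCL3L3 are 95.7% identical over an alignment with 3 gap bases, as are CCL3 and CCL3L1, taking the longest reading frames of the GENCODE transcripts on GRCh37 and, for CCL4, the closest transcript of each copy. In the table CCL4L2 had 0.233 FPKM in 1 library, the Rec-1 control, with 0 elsewhere, and CCL3L1, CCL3L3 and CCL4L1 were listed at 0 in all 6 libraries. How fragments that match a gene and its copy were shared out is not given in the sources used here, so the values of CCL3 and CCL4 may include fragments of the copies.

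IL10, an anti-inflammatory cytokine that signals through IL10RA and IL10RB, lies on chromosome 1 from 206940947 to 206947886 on the minus strand. The Jeko control held 7.70 FPKM, with 7.18 in Jeko sgRNA 1 and 12 in Jeko sgRNA 2, or 284, 231 and 489 fragments. The Rec-1 control had 29.4 FPKM (1193 fragments), Rec-1 sgRNA 1 had 0.0574 and Rec-1 sgRNA 2 had 0.158 (4 fragments). IL10 had the most fragments of the 9 genes in each Jeko library, and both Rec-1 sgRNA libraries were again far below the other 4. That position below the 4 other libraries was common, being held by 29.1% of the 11400 tested genes, and 37% had both Rec-1 sgRNA libraries below both Jeko sgRNA libraries. The Rec-1 control was above the 5 others at 13.5%.

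CCL22 and CCL17, both ligands of CCR4, lie 38577 bases apart on chromosome 16, CCL22 from 57392695 to 57400101 and CCL17 from 57438679 to 57449975, both on the plus strand. CCL22 was 0.199 FPKM in the Jeko control, 0.0816 in Jeko sgRNA 1 and 0.0129 in Jeko sgRNA 2, or 14, 5 and 1 fragments. It was 0.142 FPKM in the Rec-1 control, 0.192 in Rec-1 sgRNA 1 and 0.290 in Rec-1 sgRNA 2, with 11 fragments in the control and 14 in sgRNA 2. CCL22 thus did not share the order of CCL3, since it was lowest in Jeko sgRNA 2 and higher in both Rec-1 sgRNA libraries than in the Rec-1 control. The counting intervals of the Jeko control (7.65 to 23.5 fragments) and Jeko sgRNA 2 (0.0253 to 5.57) did not overlap, and those of the Rec-1 control (5.49 to 19.7) and Rec-1 sgRNA 2 (7.65 to 23.5) did. CCL17 was listed at 0 in both controls and in Jeko sgRNA 2, and was 0.108 FPKM in Jeko sgRNA 1, 0.0883 in Rec-1 sgRNA 1 and 0.137 in Rec-1 sgRNA 2. The values of Jeko sgRNA 1 and Rec-1 sgRNA 2 were worth 1 fragment each, so no difference in CCL17 was detectable at this depth.

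NF-κB binds a 10-base κB element, and the upstream windows of the genes were searched for it because the genes were chosen as NF-κB targets. RefSeq start sites (GRCh38.p14) were in the table used for CCL3, CCL22, TNF, LTA, LTB, IL10 and IL6, and not for CCL4 and CCL17. The most upstream start of each gene was taken, and the 250 bases before it were read on both strands for the κB consensus. Matches were present for CCL22, LTB and IL6, and 9.58% of 27305 genes of the RefSeq table held one. They are printed on the gene's strand with 10 flanking bases, and the capitals mark the match, which at CCL22 is the union of 4 overlapping matches on the 2 strands.
CCL22, chr16:57358587-57358617: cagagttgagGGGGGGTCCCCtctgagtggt
LTB, chr6:31582492-31582521: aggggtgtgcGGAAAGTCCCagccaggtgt
IL6, chr7:22727117-22727146: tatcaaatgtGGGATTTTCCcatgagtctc
The windows of CCL3, TNF, LTA and IL10 held no match. A match is a description of these letters, and the absence of one says nothing of NF-κB binding elsewhere at the gene.

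The question of the design, what follows from targeting NR4A1, was first put to the controls themselves, since each is a single library. The Rec-1 control was 39.7 times the Jeko control for CCL3 in FPKM, 38.9 times for CCL4 and 3.82 times for IL10. These were large steps between libraries that were otherwise close. At least a 2-fold difference, 1 on the log2 scale, with the Rec-1 control higher was seen at 0.879% of 10351 protein-coding genes and 1.68% of all tested genes, and one in either direction at 1.05% and 2.51%. CCL3, at 4.82, had the second highest difference of those genes, after the histone gene HIST1H2BK. CCL4 was the fourth at 3.6 and IL10 the eighteenth at 1.80, where the median over all tested genes was −0.010. CCL4 averaged 0.935 FPKM without the Rec-1 control and was tested only through that library. Its high place was thus partly built into its having been tested. Of 15 tested genes of a list of cell-bound and intracellular NF-κB targets, 0 differed by 2-fold between the controls, with a median of 0.07, and of 14 genes of the NF-κB pathway itself 0 did, with a median of 0.03. Lists of this size hold about none at the shares just given, so these counts are near the background. There is no replicate of either control, so these are descriptions.

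**Figure D3:**
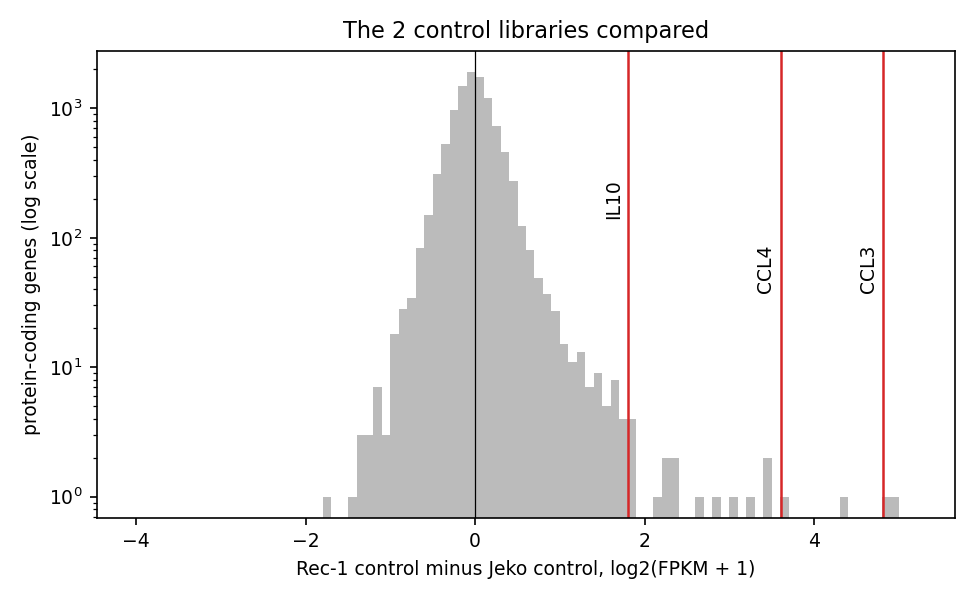
Distribution over 10351 protein-coding genes of the difference between the Rec-1 control and the Jeko control (x axis, log2(FPKM + 1), 1 library each), with the number of genes on a log scale (y axis). The red lines mark IL10, CCL4 and CCL3 at 1.80, 3.6 and 4.82, to the right of nearly all genes. CCL4 was tested only through the Rec-1 control.

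Against the control of their own line, the guides gave different pictures in the 2 lines. In Jeko, CCL3 differed by −0.30 for sgRNA 1 and 1.01 for sgRNA 2, CCL4 by 0.15 and 1.66, and IL10 by −0.09 and 0.58. Jeko sgRNA 2 was thus higher than the control for the 3 genes while sgRNA 1 was near it, and none of the 3 was 2-fold away from the control on one side with both guides, as 3.04% of tested genes were (1.89% higher, 1.15% lower). Between the 2 Jeko guides, sgRNA 2 was higher by 1.31 for CCL3, 1.51 for CCL4 and 0.67 for IL10. A step of at least 2-fold in that direction was seen at 2.89% of tested genes. In Rec-1, CCL3 differed from the control by −6.56 and −6.43, CCL4 by −4.0 and −3.94 and IL10 by −4.85 and −4.71. In percent of the Rec-1 control, CCL3 was at 0.102% in sgRNA 2, CCL4 at 0.486% and 0.748% and IL10 at 0.195% and 0.537% in sgRNA 1 and 2. These percentages are rough. Rec-1 sgRNA 2 held 1 fragment each of CCL3 and CCL4 (counting interval 0.0253 to 5.57) and 4 of IL10 (1.09 to 10.2). Rec-1 sgRNA 1 has no fragment number. These 3 genes were at least 2-fold lower with both guides in Rec-1, as were 11.4% of tested genes, while 11.9% were higher and 23.3% either. The 3 genes were tested only through libraries other than Rec-1 sgRNA, so their being lower was partly built in.

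**Figure D4:**
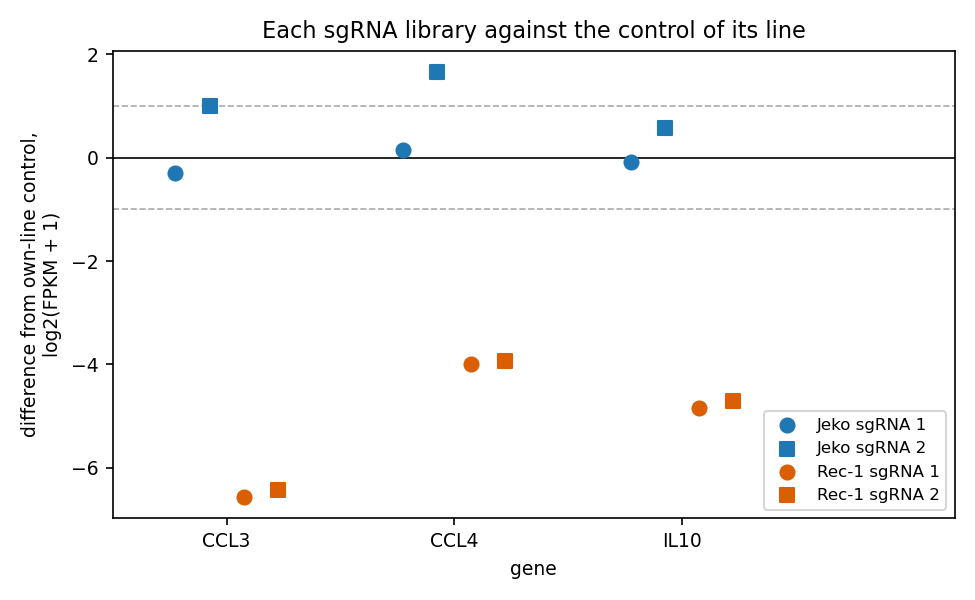
Difference of each sgRNA library from the control of its line (y axis, log2(FPKM + 1)) for CCL3, CCL4 and IL10, 1 point per library, with dashed lines at a 2-fold difference. Jeko sgRNA 1 lies within 0.30 of its control, Jeko sgRNA 2 lies between 0.58 and 1.66 above it, and the Rec-1 sgRNA libraries lie at −3.94 or lower.

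Over both lines, with the line as covariate, limma did not call any of the 3 for the sgRNA effect, which called 0.246% of tested genes (0.184% higher, 0.0614% lower). These were 21 higher and 7 lower genes, and 9 and 7 with adjustment for transcript length. CCL3 differed by −3.07 (SE 1.51, limma adjusted p 0.274), IL10 by −2.27 (SE 1.10, adjusted p 0.270) and CCL4 by −1.53 (SE 1.13, adjusted p 0.427). Unadjusted p-values were 0.0915, 0.0879 and 0.229 in that order. The sign of all 3 was decided by 1 library. Without the Rec-1 control the differences were 0.35 for CCL3, 0.25 for IL10 and 0.91 for CCL4, at limma adjusted p 0.833, 0.794 and 0.614. Without the Jeko control they were −6.50, −4.78 and −3.97, at limma adjusted p 0.00751, 0.00454 and 0.0291, and what was then tested is Rec-1 sgRNA against the Rec-1 control.

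The difference in this effect between the lines as labelled passed the limma threshold for CCL3 (−6.85, SE 0.83, adjusted p 0.0256) and IL10 (−5.03, SE 0.48, adjusted p 0.0161). CCL4 did not pass (−4.88, SE 0.94, limma adjusted p 0.0728). The interaction was called at 6.94% of tested genes, 3.25% with the sign seen here and 3.68% with the other. Its residual spread comes from the 2 guides of each line, and it contains the Rec-1 control. The step between the controls, 4.82 for CCL3 and 1.80 for IL10, is part of these values.

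A comparison that uses neither control set the Rec-1 sgRNA libraries against the Jeko sgRNA libraries, 2 against 2. IL10 was lower in Rec-1 sgRNA (log2 difference −3.22, SE 0.27, limma adjusted p 0.00419), and CCL3 was lower as well (−2.03, SE 0.47, adjusted p 0.0460). For CCL4 the difference was −1.27 (SE 0.53, limma adjusted p 0.154). The call for CCL3 lies at the threshold and was lost when all genes above 0 were tested (adjusted p 0.0927), with a minimum mean of 5 FPKM (0.0531) and without the mean-variance trend (0.0510). IL10 kept its call in these alternatives. Leaving out 1 Rec-1 sgRNA library ended both calls, with limma adjusted p of 0.0699 and 0.0614 for IL10 and 0.210 and 0.183 for CCL3 without sgRNA 1 and 2. In this comparison 25.7% of tested genes were called, 13.1% lower in Rec-1 sgRNA and 12.6% higher, and IL10 ranked 115 from the lowest among protein-coding genes. Fewer cells expressing a gene and less RNA per cell cannot be told apart in these bulk libraries.

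The receptors of the 9 proteins were followed by the same comparison. Of 11 receptor genes 6 were tested, and 4 were called between the Rec-1 and Jeko sgRNA libraries, 2 higher and 2 lower, with a median of 0.20 against −0.03 over all tested genes, of which 12.6% were called higher and 13.1% lower. Both receptors of TNF and soluble LTA were among them, with opposite signs. TNFRSF1A, the receptor that carries a death domain, was 1.34 FPKM in the Jeko control, 0.745 and 0.832 in Jeko sgRNA 1 and 2, 22 and 15.4 in Rec-1 sgRNA 1 and 2 and 0.851 in their control (difference 3.44, SE 0.23, limma adjusted p 0.00255). TNFRSF1B, the receptor of activated lymphocytes, was 21.0 FPKM in the Jeko control, 30.6 and 26.3 in Jeko sgRNA 1 and 2, 2.27 and 2.38 in Rec-1 sgRNA 1 and 2 and 15.2 in their control (−3.14, SE 0.18, limma adjusted p 0.00183). Both Rec-1 sgRNA libraries were below the other 4 for TNFRSF1B, as at 29.1% of tested genes. For TNFRSF1A both were above the other 4, and the share of genes with that position was not counted. TNFRSF1A averaged 0.942 FPKM in those 4 and was tested only through the Rec-1 sgRNA libraries, so its sign was built into its having been tested.

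The shared chain of the IL10 receptor, IL10RB, was 40.2 and 39.96 FPKM in Rec-1 sgRNA 1 and 2 and between 19.1 and 24.5 in the other 4 libraries (0.98 between the sgRNA libraries, SE 0.17, limma adjusted p 0.0240). IL10RA, the chain that binds IL10, was between 0.731 and 1.74 FPKM in all 6 libraries (0.27, SE 0.22, adjusted p 0.403). IL6ST, the signalling chain for IL6, was 3.61 and 5.80 FPKM in Jeko sgRNA 1 and 2 and 0.810 and 1.37 in Rec-1 sgRNA 1 and 2 (−1.44, SE 0.27, limma adjusted p 0.0304), and IL6R was under the minimum, between 0.141 and 0.562. TNFRSF14, a receptor of LTA, was between 7.59 and 15.3 FPKM (0.13, SE 0.30, adjusted p 0.785). The chemokine receptors described here were under the minimum for testing. CCR1 was at most 0.179 FPKM, and CCR4 was listed at 0 throughout, as was LTBR, the receptor of membrane lymphotoxin.

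Other cytokines and chemokines were listed by function, 46 in all. Of these 18 were listed at 0 in all 6 libraries, 17 were above 0 but under the minimum and 11 were tested. Between the Rec-1 and Jeko sgRNA libraries 4 of the 11 were called, all higher in Rec-1 sgRNA, where 12.6% of all tested genes were called higher, and the median was 0.91. IL18, TNFSF8, TNFSF13 and, not called, TNFSF10 averaged under 1 FPKM in the other 4 libraries and were tested only through the Rec-1 sgRNA libraries, so neither this count nor this median says which way cytokines differ. IL32, a cytokine of lymphocytes that induces TNF, was 0.150 and 2.20 FPKM in Jeko sgRNA 1 and 2, 1.28 and 1.52 in the controls of Jeko and Rec-1, and 164 and 152 in Rec-1 sgRNA 1 and 2 (6.37, SE 0.54, limma adjusted p 0.00429). TNFSF8, the ligand of CD30, was at most 0.0108 FPKM in the other 4 libraries and 15 and 26.4 in Rec-1 sgRNA 1 and 2 (4.39, SE 0.31, limma adjusted p 0.00267). TNFSF13, or APRIL, was between 0.135 and 0.797 FPKM in the other 4 libraries and 10.4 and 12.2 in Rec-1 sgRNA (3.35, SE 0.17, limma adjusted p 0.00137). IL18 was the other gene called. CCL5, in the same chromosome 17 cluster as CCL3 and CCL4, was between 4.32 and 7.8 FPKM in all 6 libraries, with a difference of 0.07 (SE 0.29, limma adjusted p 0.874).

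Among cell-bound and intracellular NF-κB targets, 15 of 16 were tested, and IER3, within the chromosome 6 window, was at 0. Between the sgRNA libraries of the lines 7 were called lower in Rec-1 sgRNA and 3 higher, with a median of −0.82, beside 13.1% and 12.6% of all tested genes. CCR7, the homing receptor of lymph nodes, had the largest difference of the list (−4.52, SE 0.34, limma adjusted p 0.00311). It was 67.5 and 37.4 FPKM in Jeko sgRNA 1 and 2 and 1.18 and 1.31 in Rec-1 sgRNA 1 and 2. TNFAIP3, a feedback inhibitor of NF-κB, was 15.9 and 22 FPKM in Jeko sgRNA 1 and 2 and 1.69 and 1.77 in Rec-1 sgRNA 1 and 2 (−2.85, SE 0.23, limma adjusted p 0.00370). BCL2A1, an inhibitor of apoptosis, went the other way, from 0 and 0.0513 FPKM to 4.42 and 6.32 (2.62, SE 0.19, limma adjusted p 0.00294). The others called lower were NFKBIA, BIRC3, BCL3, CD83 and CFLAR, and the others called higher were TNFAIP2 and TRAF1. All 3 called higher averaged under 0.1 FPKM in the other 4 libraries and were tested only through the Rec-1 sgRNA libraries, which fixed their sign. In Jeko, 0 of the 15 differed by 2-fold from the control in both sgRNA libraries, with a median of −0.07, and the share of all tested genes was 3.04%.

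All 14 genes of the NF-κB pathway core were tested, and 5 were called lower and 3 higher in Rec-1 sgRNA, with a median of −0.57, beside 13.1% lower and 12.6% higher over all tested genes. NFKB2, the subunit of the alternative pathway, had the largest difference (−2.35, SE 0.30, limma adjusted p 0.0128), followed by the protease MALT1 (−2.19, SE 0.28, adjusted p 0.0125) and the kinase MAP3K14 (−2.18, SE 0.15, adjusted p 0.00265). NFKB2 was 50.1 and 82.7 FPKM in Jeko sgRNA 1 and 2 and 12.7 and 10.9 in Rec-1 sgRNA 1 and 2. IKBKB and NFKB1 were also lower, and REL and TRAF2 were among those higher. The NF-κB genes above and the T-cell markers given at the start differed between the same 2 sets of libraries.

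**Figure D5:**
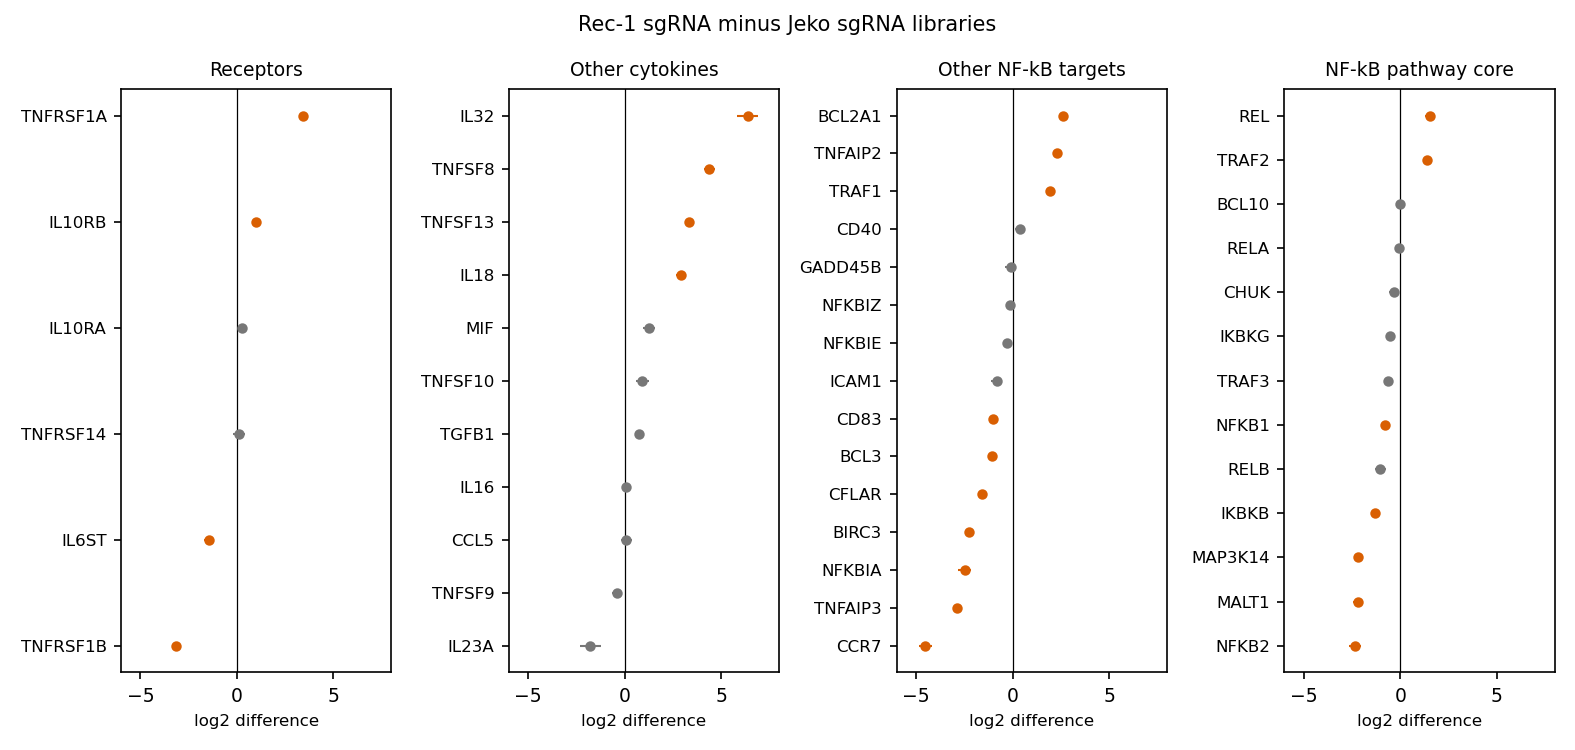
Difference between the Rec-1 sgRNA and Jeko sgRNA libraries (x axis, log2(FPKM + 1), 2 libraries against 2) for tested genes of 4 lists, all but 1 of the pathway core, with bars of 1 SE from limma. Orange points passed an adjusted p of 0.05, from TNFRSF1A at 3.44 and TNFRSF1B at −3.14 among the receptors to IL32 at 6.37 and CCR7 at −4.52, and grey points did not.

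Leaving out the 9 genes themselves, the tested genes whose profile over the 6 libraries was most like that of CCL3, by the root mean square distance of log2(FPKM + 1) values centred on each gene's mean, were HIST1H1C at 0.81 and MIR1227 at 0.95. HIST1H1C, a linker histone, had 763 FPKM in the Rec-1 control against between 26.3 and 47.9 in the other 5 libraries, and MIR1227 was at 36.4 there and at 0 elsewhere. HIST1H1C was also the nearest to CCL4, at 0.61, followed by ANXA1 at 0.65. The distance between CCL3 and CCL4 was 0.87. Placed by it among the tested genes other than the 9, CCL4 ranked 2 from CCL3 and CCL3 ranked 20 from CCL4. For IL10 the nearest were ADM at 0.41 and SGSH at 0.41. ADM, a vasoactive peptide hormone, was 29.7 FPKM in the Rec-1 control, between 8.64 and 13.7 in the 3 Jeko libraries and 0.235 and 0.0904 in Rec-1 sgRNA 1 and 2. CCL3 and IL10 were 1.08 apart, and placed in the same way IL10 ranked 11 from CCL3 and CCL3 ranked 443 from IL10. The order itself, with the Rec-1 control highest, Jeko sgRNA 2 next and both Rec-1 sgRNA libraries lowest, was shared by 1.17% of tested genes. This order was taken from CCL3, CCL4 and IL10 in the same libraries, so their having it was fixed in advance and the share describes the other genes only.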

How the data were processed

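The authors deposited 1 table of FPKM values, per the file headers, with a column for each of the 6 RNA-seq libraries (total RNA, Illumina TruSeq RNA kit, per the labels' protocols). TopHat and the hg19 build are named in the submitters' processing notes. The program that computed FPKM, the annotation and any strand setting are not given in the sources used here. FPKM are not counts, so values were analysed as log2(FPKM + 1), a pseudocount of 1. The 11400 genes whose mean reached 1 FPKM entered limma 3.58.1 under R 4.3.3, with lmFit and a mean-variance trend in eBayes. Benjamini-Hochberg adjustment ran over all of these, and the threshold was an adjusted p of 0.05. The scripts were tested on simulated data.

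The fits were sgRNA against control over all 6 libraries with the line as covariate, the interaction of line and sgRNA, and Rec-1 sgRNA against Jeko sgRNA on those 4 libraries. Differences from the own-line control rest on 1 control library each and are descriptions. The 9 members and their receptors are named, then the 3 genes of each list with the largest difference between the Rec-1 and Jeko sgRNA libraries, and the 2 genes nearest in profile to CCL3, CCL4 and IL10. For the marker lists, levels are given instead. Some genes and sequences are not reported here and stay in the counts. Members, lists and rules were chosen with earlier results of these data known. Gene positions are from GENCODE 44 lifted to GRCh37. Other steps used Biopython 1.88, matplotlib 3.10.9, scipy 1.17.1, pandas 2.3.3 and numpy 2.4.6 in Python 3.11.15. Depth is known only relative to the Jeko control, and not for Rec-1 sgRNA 1. Alternatives in pseudocount, filter, scaling, transcript length, variance trend, guide block and left-out libraries are in the closing section.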

Additional observations from a re-analysis of the deposited data

Results flagged for a closer look

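The difference of sgRNA from control libraries was not the same in the lines as labelled for CCL3 (interaction −6.85, limma adjusted p 0.0256) and IL10 (−5.03, adjusted p 0.0161). CCL3 was higher than its control in 1 of 2 Jeko sgRNA libraries and lower in 2 of 2 Rec-1 sgRNA libraries, and so was IL10. CCL4 was higher with both guides in Jeko and lower with both in Rec-1, and its interaction of −4.88 did not pass (limma adjusted p 0.0728). The interaction passed at 791 genes in all. Each of these values contains the Rec-1 control, in which CCL3, CCL4 and IL10 had their highest levels. Over protein-coding genes that library correlated with the Jeko control at 0.988 and with Rec-1 sgRNA 1 and 2 at 0.805 and 0.812. The values therefore rest on the labels, and whether the guides are behind them was not tested.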

How the results depend on the processing

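With 1 library left out at a time, the sgRNA effect ranged from −6.50 to 0.35 for CCL3, −3.97 to 0.91 for CCL4 and −4.78 to 0.25 for IL10. Only the fits without the Rec-1 control were positive, and only those without the Jeko control passed. The difference between the sgRNA libraries of the lines ranged from −2.69 to −1.38 for CCL3, −2.03 to −0.52 for CCL4 and −3.56 to −2.89 for IL10. CCL4 passed without either Jeko sgRNA library, which leaves 1 library on that side, assumed to vary like the other pair. The interaction ranged from −7.50 to −6.20, −5.63 to −4.12 and −5.36 to −4.69 in the same order, and cannot be fitted without a control. The calls for CCL3 and IL10 were lost without Jeko sgRNA 2 (limma adjusted p 0.0511 each), Rec-1 sgRNA 1 or Rec-1 sgRNA 2, and CCL4 passed without either Jeko sgRNA library (0.0301 and 0.0426). Genes called ranged from 11 to 2180 for the sgRNA effect, 847 to 1253 for the line difference and 75 to 454 for the interaction, and genes 2-fold from the Jeko control from 346 to 853 (Rec-1 from 2651 to 3463).

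Leaving out a guide could not lower the own-line counts, since 1 library then had to differ from the control in place of 2. Leaving out a library of the other line could not change them. Among the other alternatives, the count of 28 genes for the sgRNA effect became 12 when all genes above 0 were tested and 16 with adjustment for transcript length. A minimum mean of 5 FPKM, which leaves CCL4 untested, moved the line difference from 2933 to 1529 genes, the interaction from 791 to 318 and the Rec-1 own-line count from 2651 to 1698. A pseudocount of 0.1 moved the Jeko own-line count from 346 to 580, and changed no call of CCL3, CCL4 or IL10 but their size. In that order the line difference became −4.55, −2.96 and −5.54, the sgRNA effect −4.49, −2.39 and −3.46 and the interaction −9.80, −7.95 and −7.46. The Rec-1 own-line differences became −9.87 and −8.91 for CCL3, −6.51 and −6.20 for CCL4 and −7.55 and −6.84 for IL10, and that of CCL4 in Jeko sgRNA 2 became 2.79. CCL3 kept a line difference of −2.03 and an interaction of −6.85, but the former did not pass under the filters and variance setting named in the report, and the latter did not pass when all genes above 0 were tested (limma adjusted p 0.0689). CCL4 passed for the interaction with median scaling (−4.85, limma adjusted p 0.0499) and with adjustment for transcript length (−5.12, adjusted p 0.0324). Of 128 own-line differences of CCL3, CCL4 and IL10 under alternatives, 108 moved by less than the SD of the 2 guides, 20 by more and 0 of those at 2-fold or more reversed. Filters and left-out libraries cannot change such a difference, so many of the 108 were the same in advance and do not measure stability. With a pseudocount of 0.1, 7 of 12 moved by more than that SD.

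Same-numbered guides of the lines are paired by number only, and their deviations correlated at 0.0998 across genes. A replicate block by guide number gave 9 genes for the sgRNA effect, 2638 for the line difference and 428 for the interaction, and no call for CCL3, CCL4 or IL10 differed from the fit without the block. The Jeko control was added to the Jeko sgRNA libraries after the data were seen, which gave 3356 genes for the line difference. Fragment numbers of 1 to 6 limit what can be said of CCL17, of CCL22 in Jeko sgRNA libraries and of CCL4 in the Jeko control and Jeko sgRNA 1. The same holds for CCL3, CCL4 and IL10 in Rec-1 sgRNA 2.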
